A study of Homo sapiens with 12 samples.

Results

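RCC4 cells that had received a non-targeting control siRNA (siNT) make up 6 of the 12 RNA-seq libraries of this study, 3 from experiment 1 and 3 from experiment 2. They were chosen by their labels alone, and they give the baseline transcriptome of the line in 2 control sets. RCC4 is an established line of clear cell renal cell carcinoma (ccRCC) that lacks functional VHL, and it is a single line, so the libraries sample cultures and not patients. The study as a whole compared siNT with 2 siRNAs against MESH1, a cytosolic NADPH phosphatase encoded by HDDC3, which are labelled siMESH1-CDS in experiment 1 and siMESH1-7002 in experiment 2. All cells, the controls included, were collected 72 h after transfection with 40 pmol of siRNA and were of the same line and genotype. The question addressed here is which levels the control sets share and which they do not.

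VHL is the substrate receptor of an E3 ubiquitin ligase that also holds elongin B, elongin C, CUL2 and RBX1. In oxygenated cells the prolyl hydroxylases of the EGLN family modify the alpha subunits HIF1A and EPAS1 (HIF-2 alpha), the ligase then binds them, and they are degraded. When VHL is lost, as in most ccRCC, the alpha subunits persist, pair with ARNT and bind short DNA elements near genes of glucose uptake, glycolysis, angiogenesis and pH control.

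The siNT libraries held 40652444 to 49134129 reads in genes in experiment 1 and 24787804 to 31651125 in experiment 2, and levels are given as counts per 1000000 gene reads (CPM), so that 1 CPM rests on fewer reads in experiment 2. Within a set, log2 CPM over the 13884 genes tested gave Pearson correlations of 0.993 to 0.996, and between the sets they were 0.842 to 0.863, as a description over genes that share libraries. The sets also differed in how reads were sorted before counting. Of all listed reads, 6.60 to 6.80% were not counted for low alignment quality in experiment 1 and 0 in experiment 2, and reads with more than 1 alignment were 10.5 to 12.6% and 23.6 to 26.4%. By the sequencing lane in the labels, siNT of experiment 1 came from lanes 4, 5 and 6 and siNT of experiment 2 from lane 2. Experiment, lane and read sorting coincide in these libraries and cannot be told apart, and a p-value below measures the difference between the sets against the spread of 3 libraries, which the labels call biological replicates.

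Of 13884 genes tested, 6009 were higher and 6008 lower in siNT of experiment 2 than in siNT of experiment 1 (edgeR quasi-likelihood test, adjusted p under 0.05), which is 86.6% of the genes. Each direction held 43.3%, so that a list with about this share called each way does not stand apart from all genes. The difference was called and at least 2-fold for 3759 genes (27.1%) in the higher and 2370 (17.1%) in the lower direction, 44.1% in all. In contrast, 3236 genes (23.3%) had like levels, meaning that the 95% interval of their log2 difference lay inside 1.5-fold either way. A call and a like level are not exclusive, and 1926 genes (13.9%) had a small difference that the test still called. At least 1 CPM was reached in all 6 libraries by 11506 genes. The CPM ranges of the sets did not overlap for 12161 of the 13884 genes tested (87.6%). A gene without overlap therefore does not stand apart from all genes. All log2 differences below are experiment 2 minus experiment 1, with the SE of the fit, and a GC-corrected difference is the same after a trend with transcript GC content was removed. With GC correction 5396 of 13393 genes were called higher and 5823 lower. Scaling between the libraries sets where 0 lies, so higher, lower and like levels are relative to it and are not amounts of RNA per cell.

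The difference between the sets followed GC content. When the genes were cut into 10 classes of equal size, the class with the lowest GC content (median 37.2%) had a median log2 difference of -0.76, and the class with the highest (median 64.4%) had 2.46. Of the genes in the highest class 0.821% had like levels, against 34.5% in the class around a median of 50.2%. Genes of the highest class took 2.16 to 2.47% of gene reads in experiment 1 and 9.69 to 11% in experiment 2, with no overlap. Over classes of transcript length the medians ran from 0.37 in the shortest to -0.19. The GC-corrected value is therefore printed beside each difference whose sign it turns or whose size it moves by over 1.5 times. The part of GC content in these differences was not tested further.

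**Figure D1:**
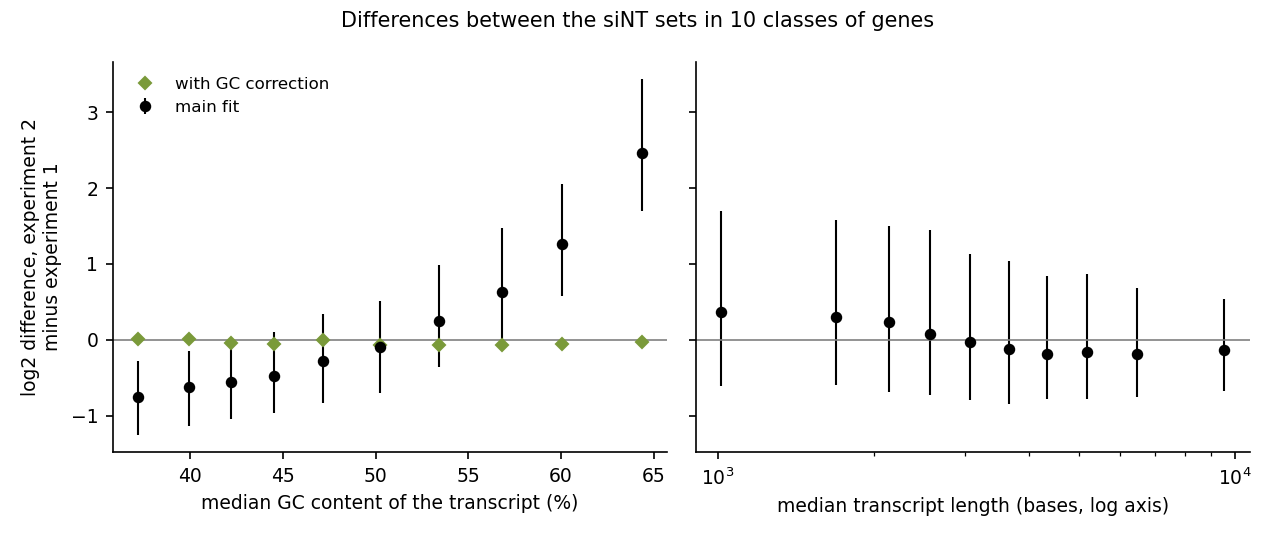
Median log2 difference (siNT of experiment 2 minus experiment 1, y axis) in 10 classes of genes by transcript GC content in percent (left) and by transcript length in bases on a log axis (right); bars span the quartiles over genes, and green diamonds show the median after GC correction. The medians rise from -0.76 to 2.46 with GC content and lie near 0 after correction, which removes this trend by construction.

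The kidney identity of the line was visible in both sets. Of 32 genes on a list of kidney and ccRCC lineage markers, 22 were at 1 CPM or more in all 6 libraries and 4 (LRP2, SLC22A6, SLC22A8 and UMOD, genes of differentiated tubules) had no reads in any. PAX8, a transcription factor that specifies renal epithelium, was at 198, 167 and 189 CPM in the libraries of experiment 1 and at 480.1, 448 and 405 in experiment 2. CA12, a carbonic anhydrase of ccRCC, was at 200.3, 203 and 202 CPM and at 195, 193 and 193, a gap too small for the test to call (-0.062 ± 0.050). HAVCR1, a receptor of injured proximal tubule also known as KIM-1, was at 519, 666 and 574 CPM and at 857, 874 and 935. PAX8 and HAVCR1 were higher in every library of experiment 2, with differences of 1.27 ± 0.075 and 0.60 ± 0.071 (0.53 and 0.89 with GC correction).

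Markers of other cell types were scarce. Of 10 endothelial markers none passed the filter on low counts, and their summed level was 0.295 to 0.651 CPM in experiment 1 and 0.202 to 0.356 CPM in experiment 2. Among 14 immune markers 3 were tested and 6, among them CD3E and MS4A1, had no reads in any library. The immune list summed to 53.2 to 72.1 CPM and 106 to 108 CPM, nearly all of it CD68, a lysosomal protein that epithelial cells also make. CSF1R, the receptor of the macrophage growth factor, was at 3.01, 1.89 and 2.70 CPM in experiment 1 and at 0.158, 0.202 and 0.143 CPM in experiment 2. The 10 fibroblast and pericyte markers summed to 32.5 to 35.4 and 18.1 to 21.0 CPM, mostly COL1A1. Of these 4 were tested, 2 called higher in experiment 2, each at least 2-fold, and 2 lower (43.3% of all genes each way). Their log2 differences, experiment 2 minus experiment 1, spanned -0.92 to 4.56, and 2 of the 10 were at 1 CPM or more in all 6 libraries. Of 15 markers of other epithelia and neural tissue 1 was tested, with sums of 1.46 to 1.89 and 1.30 to 2.10 CPM. The part of these transcripts in the differences below was not tested.

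The lineage list differed between the sets, mostly upward in experiment 2. Of 26 members tested, 19 were higher and 5 lower (43.3% of all genes each way). The median difference was 1.28 (0.90 with GC correction), where the median over all genes tested was 0.00. NDUFA4L2, a mitochondrial protein that HIF induces strongly in ccRCC, stood at 34.6, 25.7 and 30.5 CPM in experiment 1 and at 1037, 1025 and 954 CPM in experiment 2, a difference of 5.05 ± 0.085 (adjusted p = 1.76e-15, 3.02 with GC correction). CDH16, the kidney-specific cadherin, went from 94.2, 87.9 and 86.6 CPM to 912, 889.8 and 867 CPM (3.31 ± 0.054, 1.91 with GC correction). CDH1, E-cadherin of epithelial junctions, was near 0 at 0, 0.0246 and 0.118 CPM and reached 3.57, 4.44 and 4.81 CPM (6.44 ± 0.74). HNF4A, a regulator of proximal tubule identity that the rule for named genes did not take, had no reads in experiment 1 and 50 reads in all in experiment 2, which is at least 8.64-fold higher against 3 reads per library.

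CDH2 and VCAM1 were lower in experiment 2. CDH2, N-cadherin, was at 566, 619 and 581 CPM in experiment 1 and at 303, 303 and 321 in experiment 2 (-0.93 ± 0.052, -0.53 with GC correction). VCAM1, an adhesion molecule for leukocytes, was at 606, 682 and 629 CPM and at 137, 144 and 154 (-2.14 ± 0.059, -1.57 with GC correction). VIM, the intermediate filament of mesenchymal cells, went the other way (0.61 ± 0.047, 0.27 with GC correction). In all 3 libraries of experiment 2 the E-cadherin gene was thus higher and the N-cadherin gene lower than in any of experiment 1. Of all genes tested, 87.6% likewise had no overlap between the sets. In bulk RNA, fewer cells of a kind and less RNA per cell cannot be told apart.

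**Figure D2:**
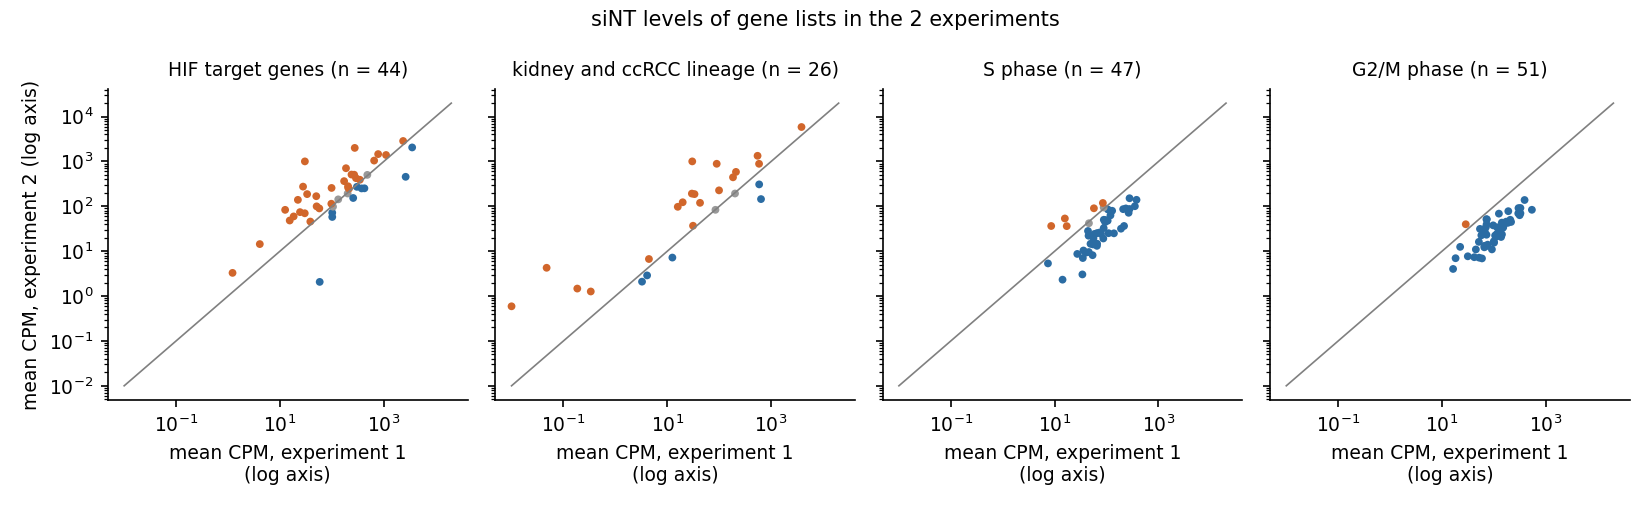
Mean CPM over the 3 siNT libraries of experiment 1 (x, log axis) against the same in experiment 2 (y, log axis) for the tested members of 4 gene lists; orange points were called higher in experiment 2, blue points lower, grey points were not called, and the line marks equal levels (a mean of 0 is drawn at 0.01). HIF targets and lineage genes lie mostly above the line, and nearly all S and G2/M genes below it.

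The most abundant transcripts encoded actin-binding, matrix, filament, ferritin and glycolytic proteins, and only part of the leading names recurred in both sets. Levels between genes are given as CPM per kilobase of transcript scaled to a sum of 1000000 (TPM-like). Of the 100 highest genes of each set 55 were shared, of the 500 highest 300, and of the 1000 highest 632. CTSD ranked 294 in experiment 1 and 7 in experiment 2, and PSAP ranked 34 and 8. The genes named next led by their mean over both sets, which favours genes high in both. TMSB10, an actin-binding thymosin, had a mean TPM-like level of 8941 and 16254 in experiments 1 and 2 and ranked 2 in experiment 1 and 1 in experiment 2. TGFBI, a matrix protein induced by TGF-beta, was at 12209 and 8339.7 and ranked 1 in experiment 1 and 3 in experiment 2. VIM was at 6319 and 8893, ACTB at 6765 and 5237, GAPDH at 6311 and 7576 and GNB2L1, the ribosome-associated scaffold RACK1, at 3900.2 and 4579.7. SPP1, the secreted phosphoprotein osteopontin, was at 3255 and 4862.

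Of these leading genes TGFBI (-0.44 ± 0.045, -0.77 with GC correction), ACTB (-0.26 ± 0.057, -0.85 with GC correction), GAPDH (0.38 ± 0.065, -0.67 with GC correction) and GNB2L1 (0.35 ± 0.051, 0.0016 with GC correction) met the criterion of like levels, and with GC correction GNB2L1 alone of the 4 stayed inside 1.5-fold. HSPA8, the constitutive HSC70 chaperone, did not, at TPM-like levels of 6938 and 1346, and ranked 3 in experiment 1 and 67 in experiment 2. The ferritin chains went the other way: FTH1 was at 1366 and 6487 and FTL at 2508 and 6051. Several of these genes have processed pseudogenes, and the share of reads with more than 1 alignment differed between the sets.

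Among the 16 HIF pathway components, 14 were tested, of which 6 were higher and 5 lower, where all genes had 43.3% each way. At like levels were 7 (background 23.3%), and the median difference was 0.063 (0.13 with GC correction). VHL was transcribed at 46.9, 47.3 and 45.9 CPM in experiment 1 and at 40.6, 42.5 and 42.5 CPM in experiment 2, a difference of -0.16 ± 0.062 that was called yet inside 1.5-fold, and of 0.10 with GC correction. These levels show that RNA of the gene was present and say nothing of the protein. The alpha subunit HIF1A was at 81.0, 86.6 and 87.2 CPM and at 83.3, 85.1 and 89.7 CPM, overlapping ranges with a difference of 0.018 ± 0.059 (95% interval -0.11 to 0.14). With GC correction the difference of HIF1A was 0.81 and was called, so that its like level depends on that step. Its partner ARNT was at 68.5, 74.8 and 67.7 CPM and at 69.1, 70.1 and 72.8 CPM (0.0067 ± 0.061, 0.28 with GC correction). EPAS1, the alpha subunit most tied to ccRCC growth, was at 196, 182 and 193 CPM and at 291, 279 and 286 CPM, higher in every library of experiment 2 (0.58 ± 0.054, 0.38 with GC correction, adjusted p = 5.97e-08).

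Per length EPAS1 exceeded HIF1A in both sets, with mean TPM-like levels of 113 and 156 for EPAS1 against 65.9 and 61.6 for HIF1A in experiments 1 and 2. HIF3A, another alpha subunit, stayed at 0 to 0.102 and 0 to 0.0356 CPM and was not tested. ARNT2, the paralogue of ARNT, was at 17, 15.3 and 17.3 CPM and at 36.2, 37.3 and 34.0 CPM (1.11 ± 0.078).

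Of the oxygen sensors, EGLN1 (PHD2), the main hydroxylase of HIF1A, was at 217, 212 and 212 CPM and at 240.5, 245 and 257 CPM (0.21 ± 0.052, 0.65 with GC correction, a like level). EGLN3 (PHD3), which is itself a HIF target, was at 50.3, 50.9 and 49.2 CPM and at 169, 169 and 168 CPM, a difference of 1.75 ± 0.054 (1.85 with GC correction, adjusted p = 1.71e-13). EGLN2 was at or near 0 in all 6 libraries; it shares exons with a read-through transcript, and reads in both are not counted to either, so its level is uncertain. HIF1AN, the asparaginyl hydroxylase FIH, was at 112, 122 and 120.3 CPM and at 108, 109.7 and 106 CPM (-0.13 ± 0.055, 0.16 with GC correction). The coactivators EP300 (0.11 ± 0.056, not called) and CREBBP (0.63 ± 0.058) had GC-corrected differences of -0.036 and 0.068.

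The other ligase subunits did not move together. CUL2, the scaffold, was at 139.8, 129.9 and 132 CPM and at 56.4, 60.7 and 64.5 CPM (-1.15 ± 0.065, -0.47 with GC correction), and TCEB1, elongin C, at 72.0 and 47.4 CPM on average (-0.61 ± 0.062). TCEB2, elongin B, went from 38.2, 29.9 and 35.9 CPM to 95, 96.6 and 80.0 CPM (1.38 ± 0.094), and with GC correction its difference was -0.18. RBX1 was at a like level (-0.35 ± 0.067, -0.17 with GC correction).

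HIF acts through the core ACGTG, and the promoters of the list hold it often. In RefSeq windows from 250 bases before to 50 after the gene start (GRCh38.p14), 19 of the 38 target promoters found (50%) held ACGTG on either strand (CACGT on the other), against 21.6% of all 27305 promoters and 26.5% of the 10801 promoters of genes tested. The sites of the 4 most abundant targets with a match are shown in gene orientation, the match in capitals.
LDHA, chr11:18394480-18394504, plus strand: tgggttcccgCACGTccgccggccc
PGK1, chrX:78104266-78104290, plus strand: ctccggagcgCACGTcggcagtcgg
PLIN2, chr9:19127546-19127570, minus strand: gccgcgggtcACGTGctgcggaggc
ENO2, chr12:6914452-6914476, plus strand: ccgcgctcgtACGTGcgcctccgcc
A match is a description of letters in the window and not evidence of binding in these cells.

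HIF targets as a list were higher in experiment 2. Of 44 tested, 31 were higher and 9 lower (43.3% of all genes each way), and 13 were at like levels (23.3% of all genes). The median difference was 0.59 and with GC correction 0.77. All 44 were at 1 CPM or more in all 6 libraries, and together they took 1.63 to 1.69% of gene reads in experiment 1 and 1.96 to 1.98% in experiment 2. The genes with matches above show the spread. LDHA, which makes lactate, was at 3452, 3519 and 3612 CPM and at 1973, 2078 and 2122 CPM, lower in experiment 2 (-0.78 ± 0.049, -0.33 with GC correction). PGK1, a glycolytic kinase, was at like levels (0.33 ± 0.048, 0.81 with GC correction). PLIN2, which coats the lipid droplets that give clear cells their look, was at 241, 233 and 244 CPM and at 516, 515 and 503 CPM (1.09 ± 0.050), and ENO2, a neuronal enolase, differed by 1.08 ± 0.053 (0.61 with GC correction).

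Secreted HIF targets included both shared and unequal genes. IGFBP3, a binding protein of insulin-like growth factors, was at 2229.6, 2578 and 2288 CPM and at 2825, 2853 and 2917 CPM, a like level (0.28 ± 0.054). VEGFA, the angiogenic factor, was at 287, 242 and 278 CPM and at 567, 511 and 445 CPM, with every library of experiment 2 above experiment 1 (0.91 ± 0.084, adjusted p = 5.91e-08, exact two-sided permutation p = 0.10, the smallest that 3 against 3 allows). CA9, the carbonic anhydrase used as a ccRCC marker, was at 33.7, 32.1 and 34.5 CPM and at 193, 193 and 176 CPM (2.48 ± 0.063, 1.16 with GC correction). NDRG1, a hypoxia-induced differentiation gene, was at 286, 259 and 284 CPM and at 2048, 2021 and 1959 CPM (2.86 ± 0.055). DDIT4 (REDD1), an inhibitor of mTORC1, went from 28.6, 26.6 and 28.6 CPM to 285, 281 and 259.6 CPM (3.30 ± 0.062).

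Other targets were lower in experiment 2 or shared. ANGPTL4, a secreted inhibitor of lipoprotein lipase, was at 75, 36.9 and 63.2 CPM in experiment 1 and at 2.40, 2.42 and 1.39 CPM in experiment 2 (-4.82 ± 0.31). KDM3A, a histone demethylase, differed by -0.81 ± 0.060 (-0.40 with GC correction). BNIP3L, CCND1, HK2 and CA12 were at like levels, with differences of -0.16, 0.057, -0.10 and -0.062, and with GC correction of 0.51, 0.074, -0.16 and -0.036. The members tested spanned -4.82 to 5.05 on the log2 scale.

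**Figure D3:**
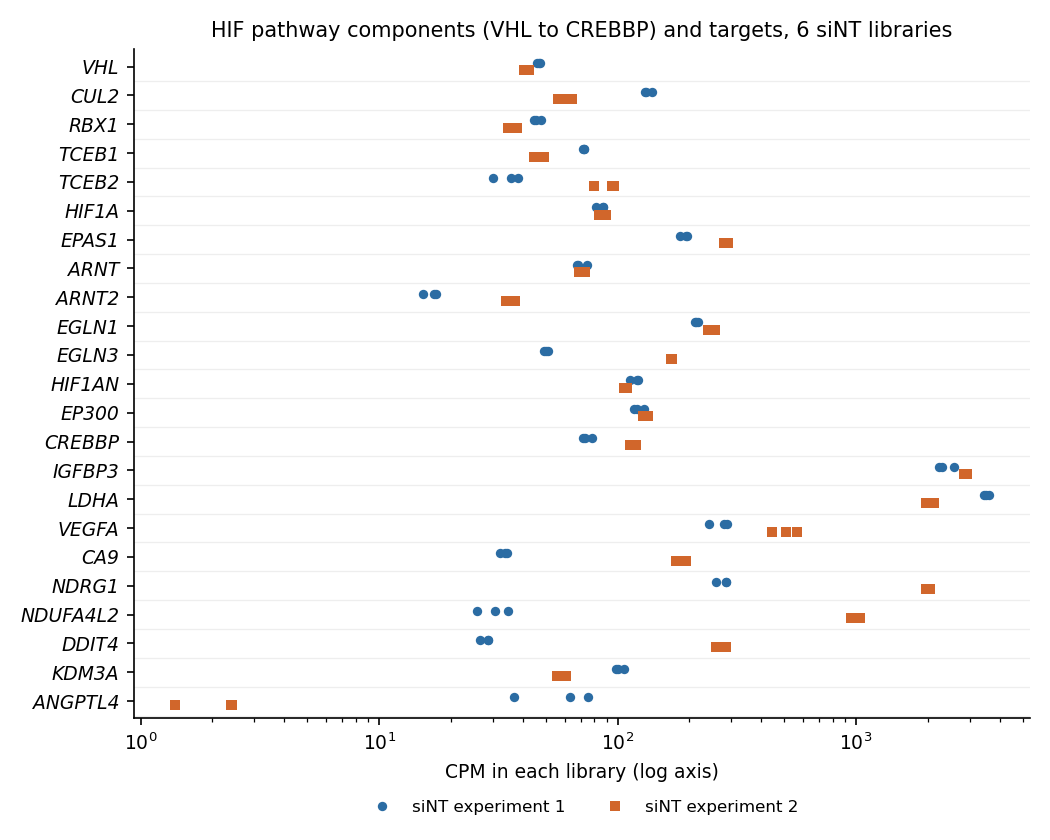
CPM (x, log axis) of 14 HIF pathway components and 9 HIF targets in each siNT library; blue circles are the 3 libraries of experiment 1 and orange squares the 3 of experiment 2. HIF1A and ARNT overlap between the sets, EGLN3, NDRG1 and NDUFA4L2 are higher in every library of experiment 2, and ANGPTL4 is lower in every one.

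Glycolysis, the pathway that HIF drives in ccRCC, had 14 of 21 genes higher and 4 lower in experiment 2 (43.3% of all genes each way). The median was 0.36 (-0.0012 with GC correction), and 8 were at like levels (23.3% of all genes). With GC correction 10 were higher and 9 lower, against 5396 and 5823 of 13393 genes in all. PKM, the last kinase of the pathway, was at 2951, 2791 and 3007 CPM and at 3030.2, 3033 and 2880.1 CPM, overlapping ranges (0.030 ± 0.051, -0.97 with GC correction). SLC16A3 (MCT4), the lactate exporter, was at 43.6, 32.1 and 39.7 CPM and at 621, 597 and 545 CPM (3.93 ± 0.091, 1.97 with GC correction), and PFKL, a liver-type phosphofructokinase, differed by 3.22 ± 0.070 (1.04). The glucose transporter SLC2A3 (-1.02 ± 0.079, -0.67 with GC correction) and LDHB (-0.69 ± 0.055, -0.37 with GC correction) were lower.

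Nuclear genes of oxidative phosphorylation had the largest share of like levels among the lists with 10 or more members tested. Of 36 tested, 19 were at like levels (23.3% of all genes), and 12 were higher and 16 lower (43.3% each way). The median difference was -0.023 (0.00012 with GC correction). COX4I1, of cytochrome c oxidase, was at 250.5, 230.4 and 243 CPM and at 283, 296 and 272 CPM (0.23 ± 0.057), and ATP5O, of ATP synthase, differed by -0.16 ± 0.051. ATP5B, the catalytic beta subunit of the same enzyme, was lower (-0.74 ± 0.048), and NDUFS8, of complex I, was higher (2.16 ± 0.10) with a GC-corrected difference of 0.014. The 13 proteins encoded in mitochondrial DNA are not analysed here.

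The target of the study's siRNAs was low in these controls. HDDC3 was at 8.91, 7.18 and 8.49 CPM in experiment 1 and at 14, 13.2 and 12.8 CPM in experiment 2, a difference of 0.69 ± 0.10 (exact two-sided permutation p = 0.10) that was -0.012 with GC correction. In the libraries labelled siMESH1-CDS it was 0 to 0.305 CPM and in those labelled siMESH1-7002 1.18 to 1.72 CPM, below every siNT library. Of 20 genes of NADPH supply tested, HDDC3 among them, 12 were higher and 8 lower (43.3% of all genes each way), with a median of 0.31 (-0.11 with GC correction). NADK, which makes cytosolic NADP, was at 25.5, 19.8 and 21.9 CPM and at 38.8, 39.5 and 34.3 CPM (0.74 ± 0.10, 0.070 with GC correction). TKT and TALDO1, transketolase and transaldolase of the pentose phosphate pathway, differed by 1.75 ± 0.074 and 0.34 ± 0.066, and by 0.84 and -0.32 with GC correction. IDH2, the mitochondrial NADP-dependent isocitrate dehydrogenase, was higher (1.88 ± 0.053, 1.29 with GC correction), and the folate enzymes MTHFD2 (-2.67 ± 0.072) and MTHFD1L (-1.26 ± 0.057) and the malic enzyme ME2 (-1.61 ± 0.072, -1.01 with GC correction) were lower. ACLY, which makes cytosolic acetyl-CoA, was at 528 and 729 CPM on average (0.47 ± 0.058, 0.31 with GC correction), and FASN, which uses NADPH to build fatty acids, differed by 3.29 ± 0.075 (0.60 with GC correction).

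Genes of ferroptosis and glutathione, the setting in which MESH1 was studied, went both ways. Of 31 tested, 12 were higher and 17 lower, where all genes had 43.3% each way (median -0.28, -0.45 with GC correction). SLC7A11, the cystine importer whose blockade starts ferroptosis, was at 33.4, 39.8 and 33.9 CPM in experiment 1 and at 5.40, 5.93 and 7.02 CPM in experiment 2 (-2.55 ± 0.11, adjusted p = 3.45e-12). GCLM, the regulatory subunit of glutathione synthesis, was at 149, 144 and 146 CPM and at 49.2, 49.7 and 51.4 CPM (-1.55 ± 0.057, -0.80 with GC correction). The iron-storing ferritins showed the reverse, with FTH1 at 533, 559.9 and 549 CPM and at 2847, 2938 and 2668 CPM (2.36 ± 0.051, 2.40 with GC correction) and FTL at a difference of 1.38 ± 0.062 (0.75 with GC correction). SLC40A1, the iron exporter ferroportin, was at 0.936, 1.33 and 1.08 CPM and at 5.28, 6.70 and 7.06 CPM (2.51 ± 0.18). GPX4, the peroxidase that removes lipid peroxides, was 1.22 ± 0.066 before and -1.43 after GC correction, so its direction depends on that step.

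Genes of the integrated stress response, in which the kinases of eIF2 alpha raise translation of ATF4, were mostly lower in experiment 2. Of 35 tested, 21 were lower and 11 higher (43.3% of all genes each way), with a median of -0.46 (-0.77 with GC correction). ASNS, asparagine synthetase and a direct target of ATF4, was at 223, 213 and 217 CPM in experiment 1 and at 18.8, 18.6 and 21.6 CPM in experiment 2 (-3.47 ± 0.068, -3.19 with GC correction). Glycyl-tRNA synthetase, GARS, was at 567, 565 and 583 CPM and at 189, 192 and 196 CPM (-1.57 ± 0.050). ATF4 itself was at 344, 363 and 358 CPM and at 259, 259 and 254 CPM (-0.47 ± 0.049, -1.15 with GC correction), and its target ATF3 at 28.0, 35.0 and 29.6 CPM and at 8.09, 9.24 and 9.91 CPM (-1.77 ± 0.10). DDIT3 (CHOP) did not follow, with overlapping ranges of 16.1 to 17.5 and 16.9 to 18.8 CPM (0.059 ± 0.083, 0.13 with GC correction, 95% interval -0.12 to 0.24). GDF15, a secreted stress cytokine, was higher at 15.5, 13.2 and 15.7 and 365, 352 and 327 CPM (4.55 ± 0.074, 2.52 with GC correction).

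Chaperones of the endoplasmic reticulum and targets of ATF6 and IRE1 had 15 of 26 members lower and 6 higher (43.3% of all genes each way). Their median was -0.52 (-0.51 with GC correction). HSP90B1 (GRP94) was at 3059, 3048 and 3031 CPM and at 919, 928 and 1006 CPM (-1.68 ± 0.051). CALR, calreticulin, differed by -0.47 ± 0.048 (-0.81 with GC correction), and XBP1, the factor that IRE1 splices, by -0.58 ± 0.058. DNAJB9, an ER cochaperone, was at 54.5, 52.0 and 52.9 and 21.9, 20.6 and 24.4 CPM (-1.26 ± 0.075, -0.65 with GC correction), and HERPUD1, of ER-associated degradation, was at a like level (0.24 ± 0.056, 0.46 with GC correction). ERN1, which encodes IRE1 alpha, was low and higher in experiment 2 at 2.83, 2.07 and 2.21 and 6.35, 6.74 and 7.20 CPM (1.5 ± 0.15). CTH, of transsulfuration, differed by -0.52 ± 0.10 (-0.036 with GC correction).

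Cytosolic heat shock proteins followed the same direction. Of 14 tested, 9 were lower and 4 higher, where all genes had 43.3% each way (median -0.89, -0.58 with GC correction). HSPA8 was at 5659.5, 5340.2 and 5718 CPM and at 1117, 1165 and 1229.7 CPM (-2.25 ± 0.054), and HSP90AA1 and HSP90AB1, the inducible and constitutive HSP90 chaperones, differed by -1.84 ± 0.059 and -1.58 ± 0.050. HSPB1, the small heat shock protein HSP27, was among the higher members at 29.3, 26.1 and 27.4 and 585, 576 and 502 CPM (4.32 ± 0.070, 1.87 with GC correction).

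Genes of G2 and mitosis gave the most uniform difference among the lists with 10 or more members tested. Of 51 tested, 50 were lower in experiment 2 and 1 was higher (43.3% of all genes each way). At least 2-fold lower were 44, against 17.1% of all genes, and the median difference was -2.04. With GC correction 51 of 51 were lower, against 5823 of 13393 genes in all, and the median was -1.71. The list took 0.672 to 0.678% of gene reads in experiment 1 and 0.183 to 0.185% in experiment 2. Many of its promoters hold the cell cycle homology element TTTGAA, which was found on either strand (TTCAAA on the other) in 29 of 43 windows (67.4%), against 15.4% of all promoters and 9.57% of those of genes tested. The most abundant members with a match illustrate it.
CKS2, chr9:89311156-89311181, plus strand: ggctgtcggaTTCAAAtccggatcgt
ANLN, chr7:36389832-36389857, plus strand: gaaattcaaaTTTGAAcggctgcaga
CDC20, chr1:43358906-43358931, plus strand: acggttggatTTTGAAggagccaata

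ANLN, the anillin scaffold of the cleavage furrow, was at 525, 555 and 536 CPM in experiment 1 and at 80.3, 81.6 and 89.7 CPM in experiment 2 (-2.68 ± 0.056, -2.05 with GC correction). CKS2, a small subunit of cyclin-dependent kinases, was at 96.0, 97.7 and 96.3 CPM and at 38.0, 39.5 and 35.7 CPM (-1.36 ± 0.061, -0.79 with GC correction). PTTG1, securin, was at 119, 127 and 133 CPM and at 29.98, 27.5 and 28.0 CPM (-2.15 ± 0.066). The kinetochore genes NUF2 and NDC80 and the checkpoint kinase TTK had the largest differences of the list, at -3.10 ± 0.11, -2.85 ± 0.084 and -3.05 ± 0.092. INCENP, of the chromosomal passenger complex, was the 1 member higher in experiment 2 (0.48 ± 0.085), with -0.73 after GC correction. MKI67, the proliferation marker, was at 376 to 415 CPM in siNT of experiment 1 and at 137 to 142 CPM in siNT of experiment 2; it lies outside the naming rule and was added after its values were seen. All 3 libraries of experiment 2 were below all 3 of experiment 1 for each gene named here but INCENP. Either way, 87.6% of all genes tested had no overlap between the sets. Culture density and passage are not given in the labels.

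The S phase list behaved alike in direction. Of 47 tested, 40 were lower and 5 higher (43.3% of all genes each way), with a median of -1.43 (-1.54 and 46 lower with GC correction). The E2F core GCGGGAA, searched on both strands (the reverse complement reads TTCCCGC), was in 19 of 41 windows (46.3%), against 6.56% of all promoters and 10.2% of those of genes tested. Sites of the 3 most abundant members with a match are shown.
PCNA, chr20:5126665-5126691, minus strand: agcgtcagggGCGGGAAaaggcgtgcg
TYMS, chr18:657604-657630, plus strand: cgggacggccGCGGGAAaaggcgcgcg
MCM3, chr6:52284749-52284775, minus strand: acctttggtgGCGGGAAgagttcggaa
PCNA, the sliding clamp of DNA polymerase, was at 268, 288 and 276 CPM and at 85.9, 87.7 and 88.4 CPM (-1.67 ± 0.052). MCM3, of the replicative helicase, was at 368, 388 and 376 CPM and at 143, 137 and 139 CPM (-1.43 ± 0.051), and TYMS, thymidylate synthase, differed by -1.39 ± 0.053. CCNE2, cyclin E2, had the largest difference at 34.9, 35.1 and 32.6 and 3.06, 2.70 and 3.35 CPM (-3.49 ± 0.11). RRM2, the small subunit of ribonucleotide reductase, was at 192, 183 and 194 CPM and at 31.1, 30.7 and 33.6 CPM (-2.58 ± 0.062), CDK2 at a difference of -1.43 ± 0.064, and E2F1 of -0.64 ± 0.078 (-2.56 with GC correction).

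The S phase genes that were higher in experiment 2 included GC-rich ones. CDT1, a licensing factor, and POLD1, the catalytic subunit of polymerase delta, differed by 2.08 ± 0.11 and 1.77 ± 0.093, and by -0.49 and -0.82 with GC correction. UHRF1, which guides maintenance methylation, kept its direction (1.08 ± 0.083, 0.66 with GC correction).

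Inhibitors of the cell cycle and p53 targets were 12 higher and 11 lower of 24 tested, near the 43.3% each way of all genes (median 0.13, -0.0084 with GC correction). CDKN1A, the p21 inhibitor, was at 91.4, 92.2 and 95.8 CPM and at 351, 353 and 337 CPM (1.90 ± 0.052, 0.99 with GC correction). The death receptor gene FAS (-1.83 ± 0.072, -1.17 with GC correction) and PMAIP1, the BH3-only protein NOXA (-2.89 ± 0.086), were lower. Replication-dependent histone genes, whose mRNAs mostly lack a poly(A) tail, were nearly absent from these poly(A) libraries. Of 54 genes 13 were tested and 10 had no reads in any library, and 2 were at 1 CPM or more in all 6 libraries. Of those tested, 12 were higher and 0 lower in experiment 2 (43.3% of all genes each way). The list sums were 7.20 to 9.69 and 35.9 to 38.2 CPM (median 2.37, 2.84 with GC correction). The filter on low counts also keeps genes that pass in 1 set alone. Members near 0 in experiment 1 could thus enter through experiment 2, and the direction of this list is no independent result. HIST1H1C, a linker histone, was at 1.30, 1.84 and 1.83 CPM and at 8.56, 8.92 and 8.16 CPM (2.37 ± 0.15, 1.56 with GC correction).

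**Figure D4:**
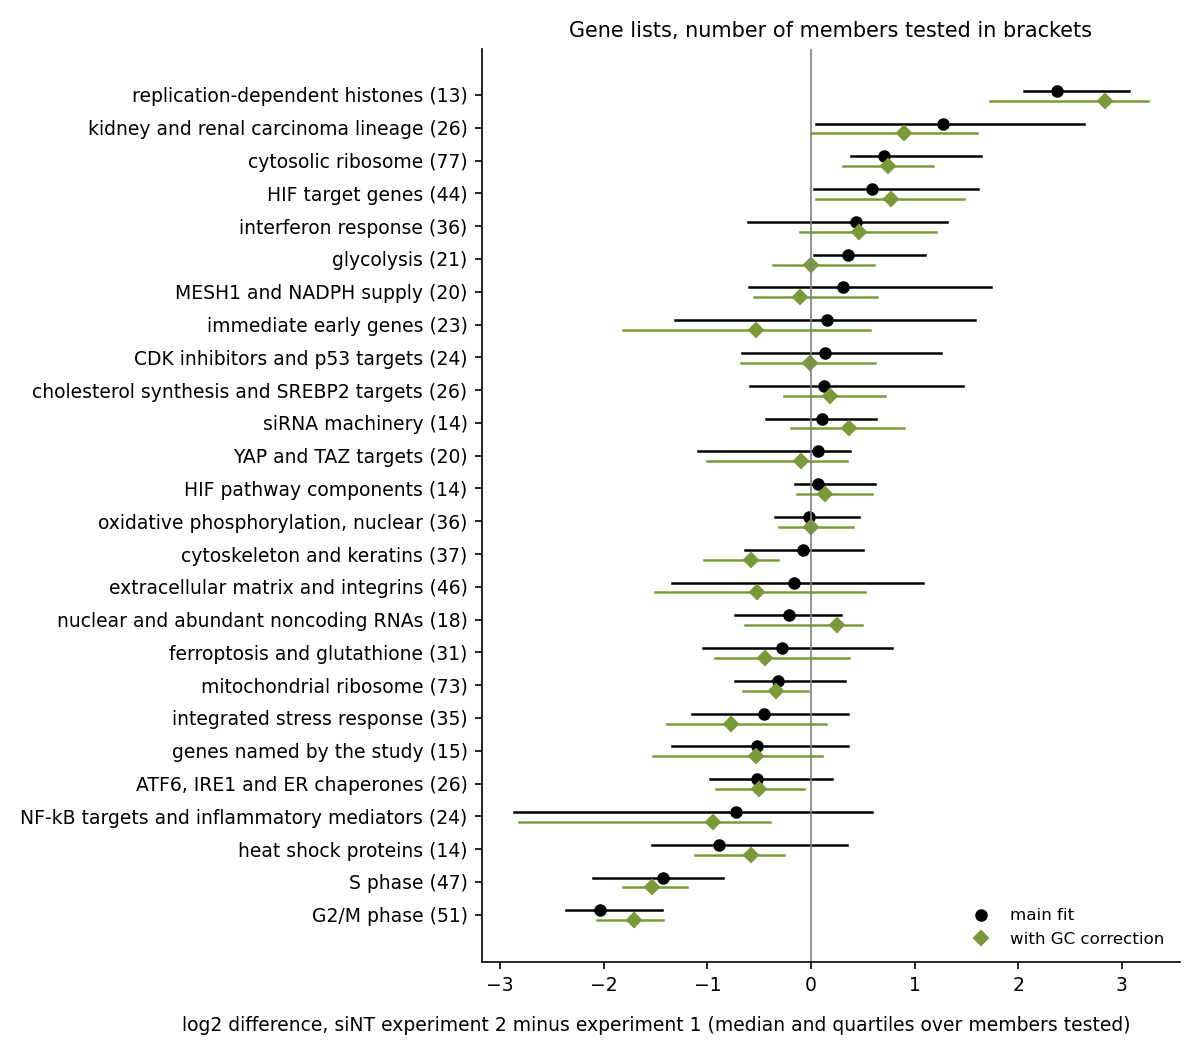
Median log2 difference (siNT of experiment 2 minus experiment 1, x axis) of each gene list with 10 or more members tested, with lines between the quartiles; black circles are the values as reported and green diamonds those with GC correction. G2/M and S phase genes lie lowest, near -2.04 and -1.43, and histones, lineage genes and cytosolic ribosomal genes highest.

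Cytosolic ribosomal protein genes were higher in experiment 2 for 63 of 77 tested and lower for 8 (43.3% of all genes each way). Their median was 0.71 (0.74 with GC correction), and 20 were at like levels, near the 23.3% of all genes. RPL30 was at 491, 517 and 539 CPM and at 533, 567 and 528 CPM, overlapping ranges (0.073 ± 0.054, 0.43 with GC correction). RPS27 was at 0.611, 0.713 and 0.635 CPM in experiment 1 and at 176, 188 and 168 CPM in experiment 2, and RPL7 at 0.957, 1.94 and 1.41 and 251, 264 and 287 CPM. RPS18 had 2 reads in experiment 1 and 445 in experiment 2, a ratio of 348 (95% exact interval 95.9 to 2885, for counting error only). Ribosomal protein genes have many near-identical copies, so that the level of such a gene depends on how reads with several alignments were treated, and these values are uncertain. Mitochondrial ribosomal protein genes had 47 of 73 lower and 20 higher, where all genes had 43.3% each way (median -0.32, -0.33 with GC correction). MRPL37 (-0.15 ± 0.051, -0.40 with GC correction) and MRPS15 (-0.22 ± 0.056, -0.47 with GC correction) were at like levels.

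Inflammatory mediators were mostly lower in experiment 2, where 15 of 24 NF-kB targets were lower and 8 higher (43.3% of all genes each way). Their median was -0.73 (-0.95 with GC correction). IL6 was at 26.2, 27.0 and 25.4 CPM in experiment 1 and at 2.37, 1.90 and 1.78 CPM in experiment 2 (-3.69 ± 0.13, adjusted p = 1.35e-13). IL8, the neutrophil chemokine CXCL8, was at 49.3, 38.4 and 43.2 CPM and at 1.33, 1.61 and 1.78 CPM (-4.80 ± 0.17), and CXCL5 at 217, 169.6 and 210.1 CPM and at 11.5, 10.9 and 12.6 CPM (-4.10 ± 0.10). IL1B, which the rule for named genes did not take, went the other way, with no reads in experiment 1 and 82 in all in experiment 2. The cytokine genes thus did not all fall together, and the members tested spanned -4.80 to 8.13 on the log2 scale. SOD2, the mitochondrial superoxide dismutase, was higher (1.15 ± 0.050), and ICAM1 was at a like level (0.25 ± 0.057, -0.46 with GC correction).

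Interferon response genes, which siRNA can induce, were 17 higher and 15 lower of 36 tested, near the 43.3% each way of all genes (median 0.44, 0.46 with GC correction). With GC correction 23 were higher and 9 lower, against 5396 and 5823 of 13393 genes in all. ISG15 was at 0.875, 0.959 and 0.988 CPM and at 18.5, 18.2 and 19 CPM (4.30 ± 0.13, 2.14 with GC correction), and IFI44 was lower (-1.69 ± 0.090, -1.02 with GC correction). The genes that load and use siRNA gave 7 higher and 6 lower of 14, near the same 43.3% each way (median 0.11, 0.37 with GC correction), and 9 higher and 4 lower with GC correction. Among them were DICER1 at 195, 215 and 194 CPM and at 71.7, 73.3 and 87.3 CPM (-1.38 ± 0.072, -0.71 with GC correction) and TLR3, a sensor of double-stranded RNA, at a difference of 0.82 ± 0.080 (1.56 with GC correction).

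Extracellular matrix genes and integrins were 20 higher and 23 lower of 46 tested, near the 43.3% each way of all genes (median -0.16, -0.52 with GC correction). With GC correction 16 were higher and 29 lower, against 5396 and 5823 of 13393 genes in all. CD44, the hyaluronan receptor, was at 2058, 2001 and 2112 CPM and at 284, 278 and 296 CPM (-2.85 ± 0.051). PLAU, urokinase, was at 553, 391 and 529 CPM and at 50.4, 47.4 and 47.1 CPM (-3.35 ± 0.10), and MMP1, interstitial collagenase, at 63.2, 49.8 and 58.1 and 3.98, 3.11 and 4.42 CPM (-3.89 ± 0.13). ITGB4, integrin beta 4, was higher, being at 0.285, 0.221 and 0.494 CPM and at 119.6, 115 and 113 CPM (8.43 ± 0.22, 6.21 with GC correction), and LAMA5, laminin alpha 5, differed by 5.42 ± 0.070 (2.42 with GC correction). COL4A1, type IV collagen, was at 3219, 2989 and 3092 CPM and at 3776, 3673 and 3698 CPM, a like level (0.26 ± 0.050, -0.26 with GC correction).

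Targets of YAP and TAZ had 9 higher and 8 lower of 20, near the 43.3% each way of all genes (median 0.069, -0.10 with GC correction). CTGF was at 46.3, 47.0 and 44.5 CPM and at 9.92, 9.04 and 10.0 CPM (-2.25 ± 0.077), CYR61 differed by -0.96 ± 0.048, and THBS1, thrombospondin, was not called (0.16 ± 0.082, 0.53 with GC correction). Cytoskeletal genes and keratins had 15 higher and 18 lower of 37, beside the same 43.3% each way (median -0.075, -0.58 with GC correction). With GC correction 8 were higher and 28 lower, against 5396 and 5823 of 13393 genes in all. KRT19, an epithelial keratin, differed by 2.61 ± 0.11 (0.87 with GC correction), and KRT18 was at a like level with overlapping ranges of 76.6 to 91.5 and 80.5 to 85.8 CPM (-0.019 ± 0.072, -0.75 with GC correction). Immediate early genes had 12 higher and 8 lower of 23, beside the same 43.3% each way (median 0.15, -0.53 with GC correction), and 7 higher and 14 lower with GC correction. MYC was at a like level (0.15 ± 0.062, -0.20 with GC correction) and FOSB at 11.9, 8.98 and 11.2 and 0.569, 0.484 and 0.249 CPM (-4.61 ± 0.30).

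Genes of cholesterol synthesis and SREBP2 had 12 higher and 9 lower of 26, where all genes had 43.3% each way (median 0.12, 0.19 with GC correction). INSIG1, which holds SREBP in the endoplasmic reticulum, was at 403, 345 and 374 CPM and at 48.7, 54.2 and 57.8 CPM (-2.81 ± 0.074). SREBF1, a factor of fatty acid synthesis, was higher (3.68 ± 0.082, 1.16 with GC correction). Of 18 noncoding RNAs tested 6 were higher and 10 lower, beside the same 43.3% each way (median -0.22, 0.25 with GC correction). MALAT1, a long nuclear RNA, was at 135, 175 and 133 CPM and at 1002, 871 and 923 CPM (2.66 ± 0.084), while SNHG1, a host of small nucleolar RNAs, was at 152, 156 and 147 CPM and at 19.3, 19.6 and 18.9 CPM (-2.98 ± 0.061).

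The 15 genes on the list taken from the study included 5 higher and 9 lower, where all genes had 43.3% each way (median -0.52, -0.54 with GC correction). DDIT3 was the member that was not called. HDDC3, ACLY, NADK, VEGFA and HERPUD1 were the higher ones.

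The largest differences lay in genes with reads in one set and few in the other. ACSM2A and ACSM2B, mitochondrial acyl-CoA synthetases of kidney and liver, had 2 reads each over the 3 libraries of experiment 1, and reached 50.9, 44.9 and 42.7 CPM and 26.6, 25.9 and 24.6 CPM in experiment 2. The ratio of pooled reads was 3069 for ACSM2A (95% exact interval 849 to 25354) and 1703 for ACSM2B (471 to 14068). These close paralogues share similar sequence. The exact intervals in this paragraph cover counting error only and not the spread between libraries. CLDN3, a tight junction claudin, had 7 reads against 1665, a ratio of 372 (180.3 to 928), and MT1G, a metallothionein, a ratio of 346 (158 to 944). The fitted difference of CLDN3 was 8.44 ± 0.52, and 4.78 with GC correction. PCSK1N (8.47 ± 0.34), TPGS1 (8.40 ± 0.33) and CACNA1H (7.12 ± 0.36) completed the higher genes with ITGB4, RPS27 and RPL7, and their GC-corrected differences were 3.4, 3.42 and 4.24.

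The 10 lower genes with the largest differences were of several kinds. INHBA, the subunit of activin A, was at 90.9, 70.8 and 85.5 CPM in experiment 1 and at 1.42, 2.14 and 2.00 CPM in experiment 2 (-5.50 ± 0.17, -4.83 with GC correction). FGF1, a fibroblast growth factor, was at 83.3, 72.1 and 80.8 CPM and at 1.39, 2.14 and 1.60 CPM (-5.55 ± 0.15). SHISA2, which retains FGF and Wnt receptors in the endoplasmic reticulum, was at 369, 346 and 373 CPM and at 9.70, 8.83 and 9.01 CPM (-5.30 ± 0.071). DKK3 of the dickkopf family, CCBE1 of lymphatic development, and SCG5, a secretory chaperone, differed by -5.26 ± 0.17, -5.25 ± 0.14 and -6.97 ± 0.37. The membrane ubiquitin ligase MARCH4 (-7.50 ± 0.61), the kinase CDK15 (-7.17 ± 0.64), the guanine exchange factor PLEKHG4B (-6.73 ± 0.33) and the protease inhibitor SERPINB7 (-5.90 ± 0.35) were below 1 CPM in every library of experiment 2.

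**Figure D5:**
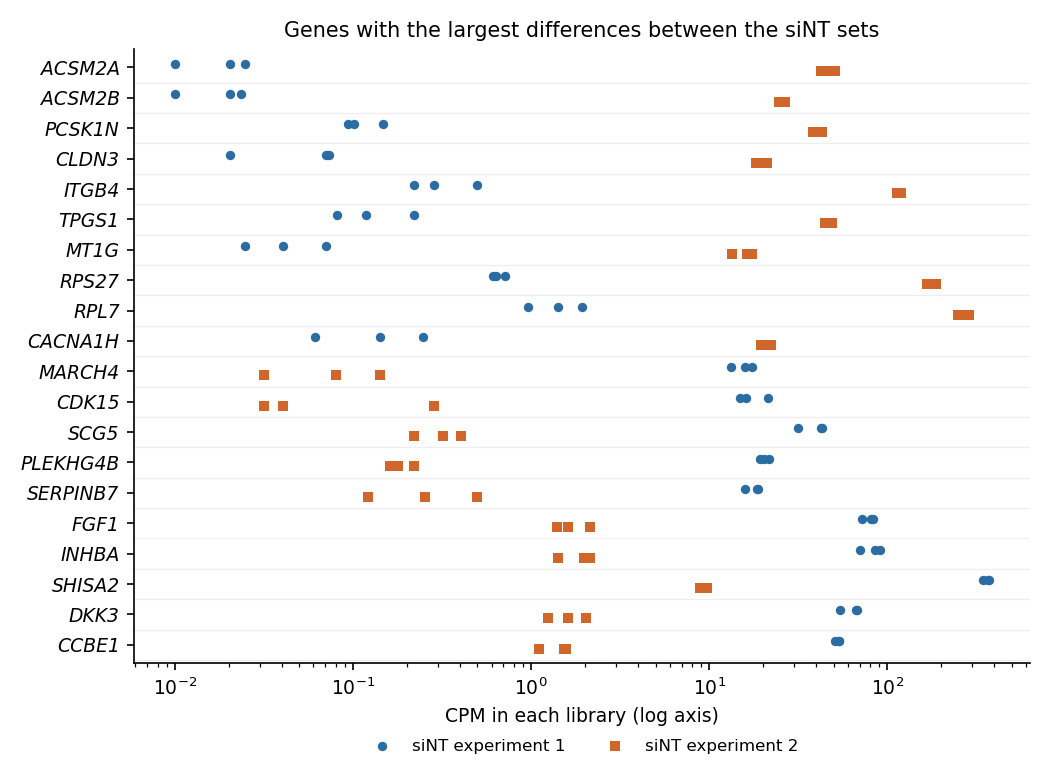
CPM (x, log axis) in each siNT library of the 10 genes with the largest positive and the 10 with the largest negative log2 differences between the sets, among genes at 10 CPM or more in every library of the higher set; blue circles are experiment 1, orange squares experiment 2, and values below 0.01 CPM are drawn at 0.01. No gene overlaps between the sets, by the rule that chose them.

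The MESH1 siRNA libraries of each experiment serve as a further look at these levels, as values only. SHISA2 was at 192 to 251 CPM with siMESH1-CDS in experiment 1 and at 11.4 to 11.9 CPM with siMESH1-7002 in experiment 2. ITGB4 had no reads with siMESH1-CDS and was at 104 to 118 CPM with siMESH1-7002, and NDUFA4L2 was at 0.0661 to 1.30 and 1101 to 1149 CPM. ACSM2A was at 2.80 to 4.34 CPM with siMESH1-CDS, above siNT of the same experiment, and at 22.0 to 23.9 CPM with siMESH1-7002.

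By the stricter reading, at 1 CPM or more in all 3 libraries of one set and under 0.1 CPM in all 3 of the other, 79 genes belonged to experiment 2 and 9 to experiment 1. Among the 9 were BCL2A1, C11orf91, CYP1A1, KRTAP2-3, MIR100HG, MPP4, VNN1 and XDH, named after their values were seen because there were few. CYP1A1, the dioxin-inducible cytochrome, was at 1.48 to 2.04 CPM in experiment 1 and had no reads in experiment 2. XDH, xanthine dehydrogenase, was at 2.61 to 4.58 and 0 to 0.0403 CPM.

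At the other end, 5 genes at 100 CPM or more in every library had the smallest differences. CIAO1, of cytosolic iron-sulfur assembly, was at 110.3, 104 and 103 CPM in experiment 1 and at 103, 106 and 108 CPM in experiment 2. NF1, the neurofibromin inhibitor of RAS, was at 105, 124 and 102 CPM and at 105, 103 and 124 CPM, and FRYL at 139, 155 and 131 and 131, 132 and 162 CPM. HNRNPUL1, a nuclear RNA-binding protein, was at 369.9, 374 and 389 CPM and at 381, 385 and 367 CPM, and RPS24, of the small ribosomal subunit, at 598, 665 and 658 and 619, 646 and 659 CPM. With GC correction the differences of these genes were -0.73, 0.55, 0.57, -0.64 and 0.013, so that RPS24 alone of the 5 stayed near 0 both ways.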

How the data were processed

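RNA-seq was made from poly(A) RNA of RCC4 cells with single-end reads of 50 bases. Per the labels, the authors deposited counts, as whole reads assigned to each gene by HTSeq, after HISAT2 alignment to hg19; no versions are given in the sources used here. Reads in genes were 50.7% to 61.1% of listed reads per library, and rows that name no gene held the rest and stayed out of library sizes and tests. The deposited comparison tables of the authors hold fold changes and p-values and were not used.

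Counts of the 6 siNT libraries, grouped by label, were fitted with edgeR 4.0.16 in R 4.3.3 (filterByExpr, TMM, glmQLFit, glmQLFTest, Benjamini-Hochberg over 13884 genes, threshold 0.05). Like levels had a 95% interval inside 1.5-fold. CPM are counts per 1000000 gene reads, and TPM-like levels divide CPM by the longest transcript of GENCODE 29, which 22354 of 23710 symbols matched. GC correction added a lowess offset (span 0.3) per library. On simulated counts with 200 genes changed 2-fold among 13732, 93.5% were recovered and 4.59% of calls were false. The simulation held few changed genes and no trend with GC content. In the data 86.6% of genes were called, so these rates do not carry over to the calls reported.

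Genes were named from 31 lists and by ranks fixed in a rule: the genes of the study, all HIF pathway components, in each other list up to 3 of the highest levels and up to 3 of the largest called differences each way, the 10 highest levels, the 10 largest differences each way and the 5 smallest. Members and lists were chosen with earlier results of these data known. Lineage and cell type markers were also named to check the label, and HIF targets and cell cycle genes because their promoter or level is shown. Replicate numbers did not pair libraries (same-number correlations of 0.064, -0.065 and -0.019). Some genes that the rule takes are not reported here.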

Additional observations from a re-analysis of the deposited data

How the results depend on the processing

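The counts of genes higher and lower in siNT of experiment 2 stayed within 1.5 times the reported ones under library size scaling, size factors of DESeq2, both filters on low counts, a single model of all 12 libraries, GC correction, GC and length correction, DESeq2, a threshold of 0.01, without ribosomal protein and histone genes, and without each library (5930 to 6135 higher, 5762 to 6014 lower). A minimum of 2-fold left 3759 higher and 2370 lower. Genes with like levels numbered 5033 with GC correction, 5216 with GC and length correction, 1910 with all 12 libraries in 1 model and 6309 inside 2-fold. With a term for replicate number (a replicate block) 5989 were higher, 5971 lower and 3181 alike; the numbers did not pair the libraries. List medians did not move when members without reads in one set were placed at their bound. Each list concerned had 1 such member, with its bound on the same side of the median, so no move was possible. The cause of each change was not tested. Depth limits calls near 1 CPM, and 3 libraries per set limit all errors.

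With GC correction the median was 0.90 for kidney lineage, 0.77 for HIF target genes, -0.0012 for glycolysis, -0.11 for NADPH supply, -0.45 for ferroptosis, -0.77 for integrated stress response, -1.54 for S phase, -1.71 for G2/M phase, -0.0084 for CDK inhibitors and p53 targets, 2.84 for histones, -0.95 for NF-kB targets, -0.53 for immediate early genes, -0.10 for YAP and TAZ targets, -0.52 for matrix and integrins, -0.58 for cytoskeleton, 0.25 for noncoding RNAs, -0.58 for heat shock proteins and 0.37 for siRNA machinery. With GC and length correction the median was 1.00 for kidney lineage, 0.80 for HIF target genes, 0.12 for glycolysis, 0.030 for NADPH supply, -0.73 for integrated stress response, -0.39 for ER chaperones, -1.64 for G2/M phase, 2.88 for histones, 0.27 for cholesterol synthesis, -0.90 for NF-kB targets, -0.38 for immediate early genes, -0.17 for YAP and TAZ targets, -0.48 for matrix and integrins, -0.60 for cytoskeleton, 0.016 for noncoding RNAs, -0.46 for heat shock proteins and -0.38 for the study genes. With size factors of DESeq2 the median was 0.62 for HIF target genes, -0.43 for integrated stress response and 0.093 for YAP and TAZ targets. With DESeq2 the median was 0.66 for HIF target genes, 0.47 for CDK inhibitors and p53 targets, -1.09 for NF-kB targets, 0.37 for immediate early genes, 0.086 for YAP and TAZ targets and -1.05 for heat shock proteins. With at least 10 counts in every library the median was 0.64 for HIF target genes, -0.41 for integrated stress response, -1.06 for NF-kB targets, 0.40 for immediate early genes, 0.11 for YAP and TAZ targets, -0.0053 for cytoskeleton and -0.48 for the study genes. With no filter on low counts the median was 0.45 for CDK inhibitors and p53 targets, -1.12 for NF-kB targets, 0.35 for immediate early genes and -1.10 for heat shock proteins. With all 12 libraries in 1 model the median was -0.48 for integrated stress response, 0.047 for YAP and TAZ targets and -0.99 for heat shock proteins. Leaving out each library in turn gave 0.54 to 0.62 for HIF target genes, -0.49 to -0.42 for integrated stress response, 0.14 to 0.36 for immediate early genes, 0.021 to 0.13 for YAP and TAZ targets, -0.11 to -0.020 for cytoskeleton, -0.91 to -0.83 for heat shock proteins and -0.55 to -0.47 for the study genes.

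The direction of single genes turned with GC correction, and with GC and length correction, to 0.51 and 0.63 for BNIP3L, -0.49 and -0.36 for CDT1, -0.73 and -0.62 for CIAO1, -0.26 and -0.38 for COL4A1, 0.57 and 0.21 for FRYL, -0.67 and -0.51 for GAPDH, -1.43 and -1.44 for GPX4, -0.46 and -0.33 for ICAM1, -0.73 and -0.65 for INCENP, -0.20 and -0.028 for MYC, 0.55 and 0.16 for NF1, -0.97 and -0.82 for PKM, -0.82 and -0.70 for POLD1, -0.32 and -0.25 for TALDO1, -0.18 and -0.19 for TCEB2 and 0.10 and 0.21 for VHL. With GC correction alone it turned for HDDC3 (-0.012) and HIF1AN (0.16), and with GC and length correction alone for CREBBP (-0.26), CTH (0.13), EP300 (-0.31) and NDUFS8 (-0.075). With GC correction ARNT (0.28), HIF1A (0.81), HK2 (-0.16), HNRNPUL1 (-0.64), KRT18 (-0.75), RPL30 (0.43) and THBS1 (0.53) gained a call, and CREBBP, CTH, GNB2L1, NADK and NDUFS8 lost it.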
